A study of Mus musculus with 8 samples.

Results

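The immediate early genes examined here are Fos, Fosb, Jun, Junb, Jund, Egr1, Ier2, Ier3, Atf3 and Btg2. They were taken by symbol: every probe set whose only gene in the array annotation was one of these 10, which gave 13 probe sets for 10 of the 18193 genes measured. Expression was measured with arrays in the fourth ventricular choroid plexus of mouse embryos at embryonic day 13. There were 4 arrays of Otx2 k.o. embryos, from a strain described as Otx2 deficient, and 4 of wildtype embryos from the same litters. All had a mixed strain background, received no treatment and were of undetermined sex. How Otx2 was deleted and how many embryos stand behind an array is not stated in the labels. The labels call each array a biological replicate.

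Immediate early genes are transcribed within minutes of a stimulus because their promoters are already occupied by factors that kinases switch on. The Fos and Jun proteins pair through leucine zippers to form AP-1, Atf3 is a zipper protein of the same class, and Egr1 binds DNA through zinc fingers. Ier3 and Btg2 do not bind DNA as factors of this kind: Ier3 is a small regulator of cell survival and Btg2 an antiproliferative co-regulator. In the choroid plexus these genes can be read in epithelium, stroma, vessels and macrophages alike.

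Proximal promoters are shown first for Jun and Btg2, which were higher in the knockout-labelled arrays and hold sites related to the cyclic AMP response element (CRE), for Fos, the classical CRE- and TATA-bearing immediate early gene, and for Ier3, which was higher and holds none of the capitalised motifs. Each window runs from 250 bases before to 50 bases after the start annotated by RefSeq (build GRCm38.p6), written 5′ to 3′ on the gene's strand. Capitals mark the CRE core TGACG or its complement, the related site TGACNTCA or its complement, and TATAAA. The windows are chr4:95052173-95052472 (minus strand) for Jun, chr1:134079106-134079405 (minus strand) for Btg2, chr12:85473640-85473939 (plus strand) for Fos and chr17:35821463-35821762 (plus strand) for Ier3.
Jun: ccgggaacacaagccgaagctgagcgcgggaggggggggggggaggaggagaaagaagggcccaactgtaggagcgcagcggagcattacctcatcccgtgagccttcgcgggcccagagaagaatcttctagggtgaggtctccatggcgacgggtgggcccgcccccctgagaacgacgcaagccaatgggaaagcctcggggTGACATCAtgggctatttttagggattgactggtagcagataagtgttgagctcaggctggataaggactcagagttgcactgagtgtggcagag
Btg2: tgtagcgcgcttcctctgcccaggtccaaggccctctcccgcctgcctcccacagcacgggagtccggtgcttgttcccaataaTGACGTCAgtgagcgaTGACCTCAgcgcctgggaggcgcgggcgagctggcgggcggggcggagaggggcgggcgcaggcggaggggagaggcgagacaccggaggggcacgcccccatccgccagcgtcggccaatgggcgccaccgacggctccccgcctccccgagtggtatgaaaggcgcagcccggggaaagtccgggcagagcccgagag
Fos: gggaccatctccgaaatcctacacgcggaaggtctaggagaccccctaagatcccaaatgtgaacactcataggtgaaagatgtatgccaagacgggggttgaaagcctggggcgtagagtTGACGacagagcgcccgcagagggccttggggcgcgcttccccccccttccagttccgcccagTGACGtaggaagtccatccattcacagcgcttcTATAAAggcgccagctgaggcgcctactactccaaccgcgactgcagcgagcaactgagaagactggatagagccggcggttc
Ier3: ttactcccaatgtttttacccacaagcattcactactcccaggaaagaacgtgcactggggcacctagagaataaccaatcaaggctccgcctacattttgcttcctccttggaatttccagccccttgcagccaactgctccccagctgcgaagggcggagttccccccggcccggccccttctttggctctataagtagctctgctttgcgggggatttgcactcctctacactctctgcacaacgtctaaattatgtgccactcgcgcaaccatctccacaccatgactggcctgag

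Of the 10 genes, 8 had such a window (all but Egr1 and Ier2). The CRE core stood in 5 of the 8 (Fos, Fosb, Junb, Atf3 and Btg2), against 20.8% of 32851 promoter windows of the same length. In Fos it began at positions -129 and -66, counted from the start, upstream of TATAAA at -33. TGACNTCA, a motif added after the sequences were seen and overlapping the core where N is G, was found in Jun at -45 and in Btg2 at -166 and -150, and in 8.83% of all windows. TATAAA was found in Fos and Junb (13.6% of all windows), but in Junb it began at position 1, at the annotated start itself. The GC box GGGCGG was found in 6 of 8 (35.7%). The AP-1 site TGANTCA (7.81% of all windows) and the CArG box of serum response factor (1.63%) were in 0 of the 8 windows. TAATCC, the homeodomain site read by Otx proteins (7.06%), was likewise in 0 of the 8. Sequence more than 250 bases before the start, and the promoters of Egr1 and Ier2, were not searched, so sites there cannot be seen. All motifs were searched on both strands, and a match is a description of these letters only. The map of matches shows that motif content differed among members that were higher: Btg2 held CRE-type and GC sites, Jun 1 of each, and Ier3 only a GC box.

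**Figure D1:**
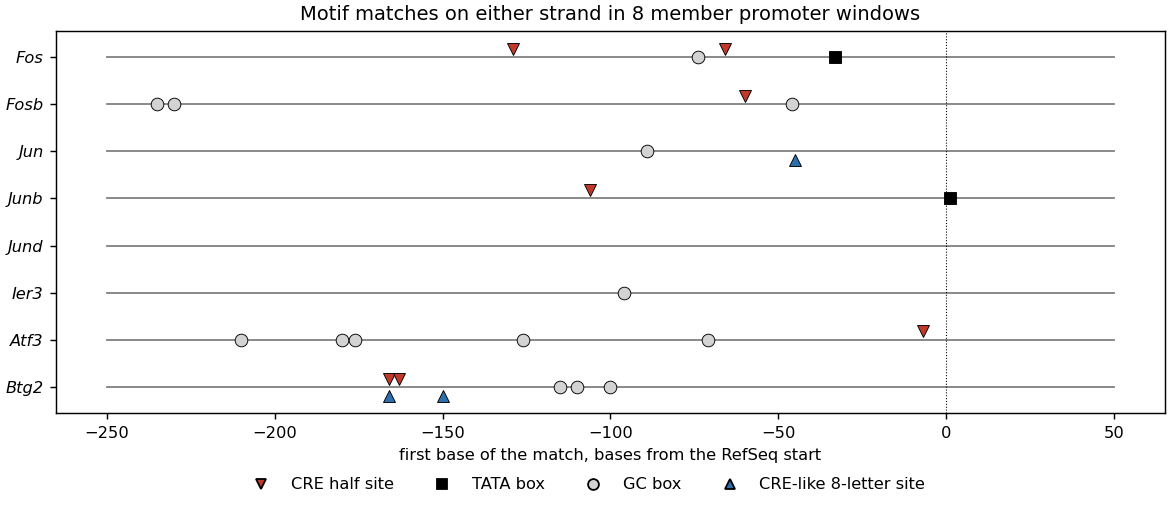
Motif matches on either strand in the 8 member promoter windows, by distance in bases of the match's first base from the RefSeq start; symbols mark the motif. Red triangles (CRE cores) lie in 5 genes. The Jund window, the lowest of the 8 in G and C (46.7%), has none of the motifs searched.

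The deposited values are RMA summaries on a log2 scale, 1 for each probe set, so that a difference of 1 is a doubling. Array medians lay between 5.886 and 5.899 in the knockout-labelled and between 5.854 and 5.876 in the wildtype arrays, so each knockout-labelled median was slightly above every wildtype one. With the arrays centred on their medians, 1128 genes were called higher in place of 1426, and 4 members in place of 5. The targeted gene did not fall: Otx2 had a mean of 12.44 ± 0.04 (SD, n = 4) in the knockout-labelled group and 11.97 ± 0.09 in wildtype (limma, adjusted p = 0.000648). The labels do not say whether its probes lie in the deleted part, so directions rest on the labels. Markers of choroid plexus epithelium defined the tissue in both groups. Their mean level over 11 measured markers was 10.59 to 10.86 in knockout-labelled and 11.57 to 11.69 in wildtype arrays, with 9 lower and 1 (Otx2) higher. Stromal markers were higher in 8 of 8 (mean 11.37 to 11.71 against 10.88 to 10.98) and macrophage markers in 5 of 10 (8.37 to 8.86 against 7.88 to 8.09). Of 8 endothelial markers, 1 was higher and 3 were lower (mean 8.99 to 9.24 against 9.16 to 9.39), and of 5 erythroid markers 1 was lower (11.26 to 11.59 against 11.52 to 11.66). Of all genes, 7.84% were called higher and 11.7% lower. With so few markers, 1 of 8 endothelial markers higher and 1 of 5 erythroid markers lower were near those shares. In such tissue samples, a change in the number of cells of a type and a change in RNA per cell cannot be told apart. The part of the marker shifts in the results below was not tested. All tests over genes are limma with Benjamini-Hochberg adjustment over the 18193 genes, 1 probe set (the brightest) per gene, and a gene is called at an adjusted p under 0.05.

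Each immediate early gene was either higher in the knockout-labelled group or did not pass the test, and 0 were called lower. Jun, Egr1, Ier3, Btg2 and Ier2 were called higher, 5 of 10, where 7.84% of all genes were called higher. The count called lower was 0 of 10, where 11.7% of all genes were called lower, so with 10 genes it was near that share. At an unadjusted limma p under 0.05 the count lower was also 0 of 10. In either direction, 7 of 10 members passed at that limit, as did 5662 of the 18193 genes. All 10 log2 fold changes (knockout-labelled minus wildtype) were above 0, from 0.06 for Fosb to 0.70 for Jun, with a median of 0.32 against 0.00 over all genes. The groups did not overlap in 4 members (Jun, Egr1, Ier3 and Junb), with every knockout-labelled array above every wildtype array, as in 9.98% of all genes. The size of the changes was modest. Only Jun, at 1.63-fold, reached a fold change of 1.5, as did 1292 of the 18193 genes in either direction. Thus 1 of 10 was near the share among all genes. The number called fell to 2 when either knockout-labelled replicate 1 or wildtype replicate 4 was omitted. It was 3 when any of wildtype replicates 1 and 3 and knockout-labelled replicate 4 was omitted.

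**Figure D2:**
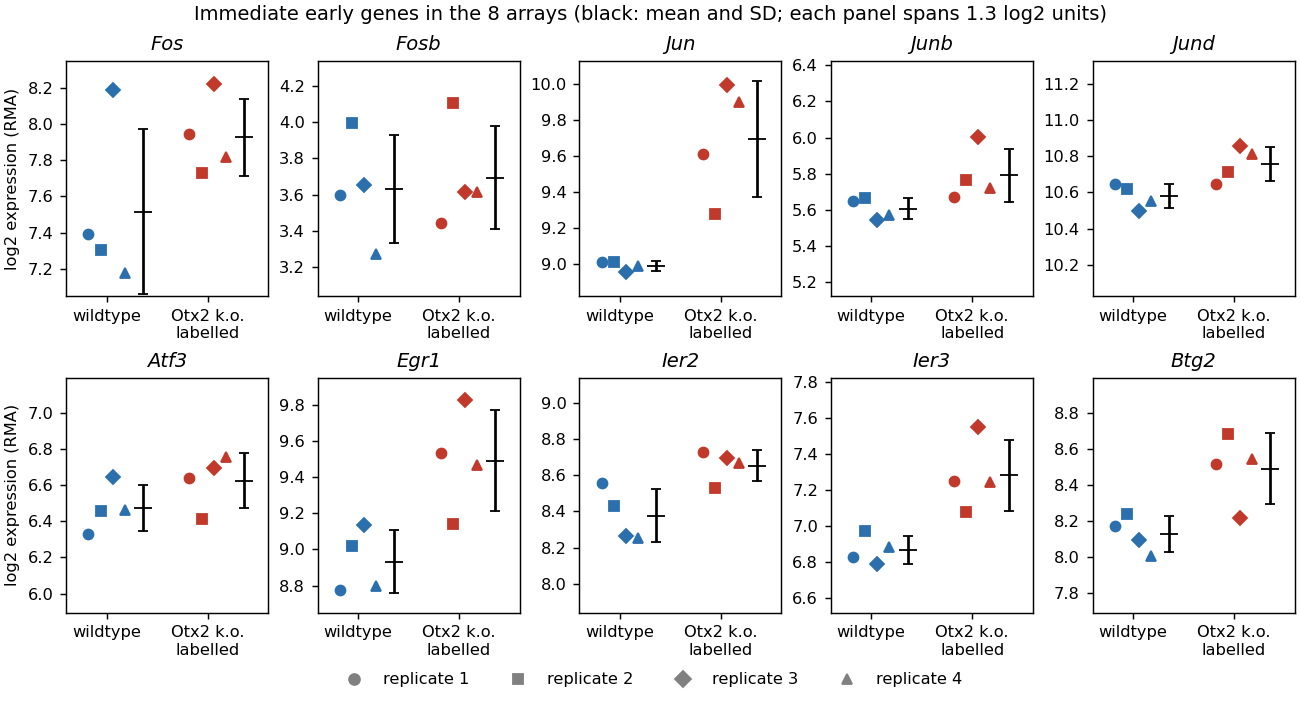
Log2 expression (RMA) of the 10 genes in each array, by group, with the mean and SD beside the points; symbols give the replicate number and each panel spans 1.3 log2 units. Jun separates widely, from 8.96 to 9.01 in wildtype and from 9.28 to 9.99 in the knockout-labelled arrays, while Fosb overlaps throughout.

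Jun, the AP-1 subunit that can bind DNA as a dimer with itself, changed most. Its brightest probe set read 9.61, 9.28, 9.99 and 9.90 in knockout-labelled replicates 1 to 4 and 9.01, 9.01, 8.96 and 8.99 in wildtype replicates 1 to 4. The wildtype arrays lay within 0.06 log2 units of each other, and the lowest knockout-labelled array, replicate 2, was 0.27 above the highest of them. The means were 9.70 ± 0.32 and 8.99 ± 0.03 (SD, n = 4), which differ by 0.70 on the log2 scale (SE 0.14; limma, adjusted p = 0.00609). A second Jun probe set gave 9.20, 9.05, 9.84 and 9.74 against 8.65, 8.75, 8.75 and 8.88. It separated the groups likewise, by 0.70 (SE 0.17), and passed in a limma fit over all 45037 probe sets (adjusted p = 0.0209). Both probe sets placed knockout-labelled replicate 3 highest and replicate 2 lowest in that group. The call held in each of the fits that left out 1 array, with log2 fold changes of 0.60 to 0.84.

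The other Jun proteins moved less. Junb, a Jun relative that often opposes Jun in growth control, read 5.67, 5.77, 6.01 and 5.72 in the knockout-labelled and 5.65, 5.67, 5.54 and 5.57 in the wildtype arrays. The groups did not overlap, but by only 0.006 log2 units, and the log2 fold change of 0.18 was not called (95% interval 0.00 to 0.37, adjusted p = 0.156). It was 0.11 on omitting knockout-labelled replicate 3. Jund, the Jun protein expressed most steadily in unstimulated cells, read 10.65, 10.72, 10.86 and 10.81 against 10.65, 10.62, 10.50 and 10.56. Knockout-labelled replicate 1 was level with wildtype replicate 1, the others lay above all wildtype arrays, and the log2 fold change was 0.18 (95% interval 0.02 to 0.33, adjusted p = 0.105). Jund was called with a trended variance prior (adjusted p = 0.0476) and among genes above the median level (0.0484), but differed by only 0.02 when its 2 probe sets were averaged (0.887). Its dim second probe set, at 4.12 ± 0.06 against 4.26 ± 0.12, differed by -0.14 and was not called (adjusted p = 0.280).

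Fos and Fosb, whose proteins dimerise only with partners such as Jun, were not called. Fos read 7.95, 7.73, 8.22 and 7.82 in the knockout-labelled arrays and 7.39, 7.30, 8.19 and 7.18 in the wildtype arrays. Wildtype replicate 3 stood at the level of the highest knockout-labelled array, while the other 3 wildtype arrays lay below all 4 knockout-labelled arrays. The log2 fold change was 0.41 (SE 0.21, 95% interval -0.05 to 0.88, adjusted p = 0.214). It was 0.64 without wildtype replicate 3, and Fos was then called (limma, adjusted p = 0.00922). With the replicate number as a block Fos was also called (adjusted p = 0.0399), and it was higher in the knockout-labelled array of all 4 same-numbered pairs. In wildtype replicate 3, Egr1 and Atf3 were also the highest of their group, at 9.13 and 6.64, whereas Jun, Junb, Jund and Ier3 were the lowest.

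Fosb, a Fos paralogue with a long-lived splice form known from neurons, had a low signal. It read 3.44, 4.10, 3.61 and 3.61 against 3.60, 4.00, 3.65 and 3.27, a dim level: 8.63% of the genes had a mean level at or below its own. The groups overlapped throughout, and the log2 fold change of 0.06 (95% interval -0.32 to 0.45, adjusted p = 0.859) lay well within the spread. Its sign turned without knockout-labelled replicate 2 (-0.07) and without wildtype replicate 4 (-0.06). Atf3, a stress-induced repressor that pairs with Jun proteins, read 6.64, 6.41, 6.69 and 6.76 against 6.33, 6.46, 6.64 and 6.46. The 2 groups overlapped through knockout-labelled replicate 2 and wildtype replicate 3, and the log2 fold change was 0.15 (95% interval -0.06 to 0.36, adjusted p = 0.317).

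Egr1, the zinc finger factor induced by mitogens and synaptic activity, read 9.53, 9.14, 9.83 and 9.47 in the knockout-labelled and 8.77, 9.02, 9.13 and 8.80 in the wildtype arrays. The groups were apart by only 0.006 log2 units, where knockout-labelled replicate 2 met wildtype replicate 3. The means were 9.49 ± 0.28 and 8.93 ± 0.17 (SD, n = 4), 1.47-fold apart, or 0.56 on the log2 scale (SE 0.14; limma, adjusted p = 0.0209). Egr1 did not pass once knockout-labelled replicate 1 was omitted (adjusted p = 0.0575), nor on omitting wildtype replicate 1 (0.0536) or 4 (0.0635).

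**Figure D3:**
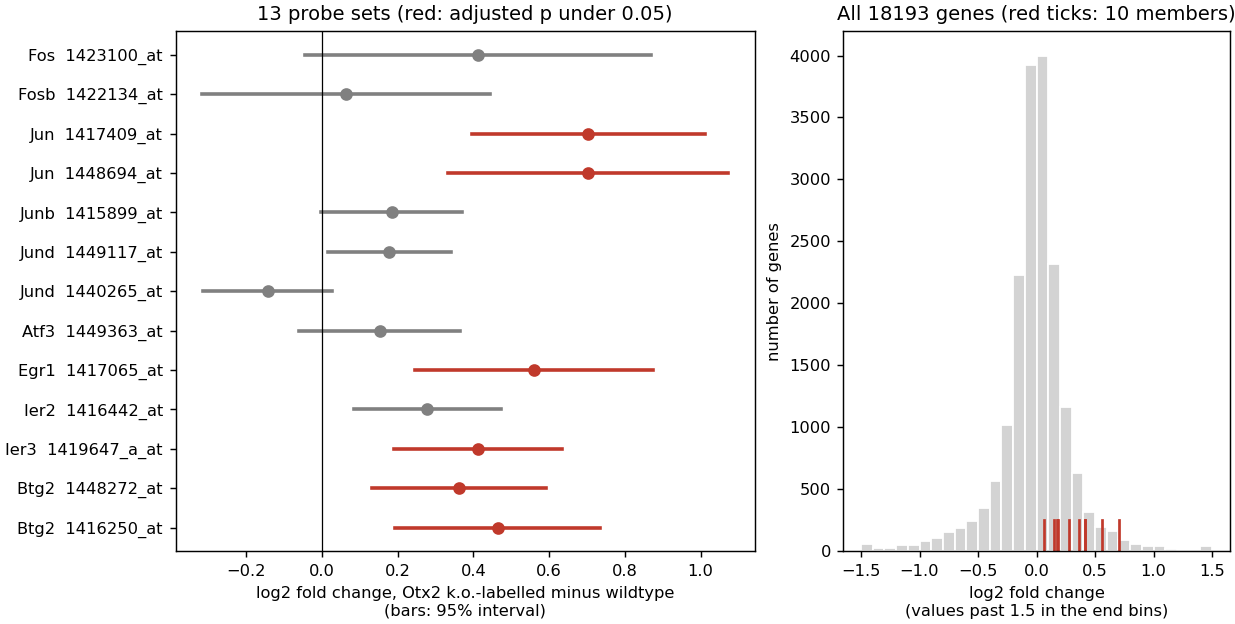
Left, log2 fold change with its 95% interval for each of the 13 probe sets, red where called in the fit over 45037 probe sets; right, the fold changes of all 18193 genes with the 10 members as red ticks. The members lie between 0.06 and 0.70, to the right of the centre of the distribution.

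Ier3, a stress- and growth factor-induced regulator of apoptosis, read 7.25, 7.08, 7.55 and 7.24 in the knockout-labelled and 6.83, 6.97, 6.79 and 6.88 in the wildtype arrays. The 2 groups were separated by a gap of 0.11. Ier3 was thus 1.33-fold higher, a difference of 0.41 (SE 0.10, adjusted p = 0.0157), and the adjusted p was 0.0501 without wildtype replicate 3. Ier2, a nuclear regulator of the same response, read 8.73, 8.53, 8.69 and 8.67 against 8.56, 8.43, 8.26 and 8.25. Knockout-labelled replicate 2 lay just under wildtype replicate 1, and the difference of 0.28 (SE 0.08, adjusted p = 0.0453) was at the edge of the threshold. The Ier2 call was lost with the replicate number as a block (adjusted p = 0.0546), in the fit over all probe sets (0.0660), and with arrays centred on their medians (0.0702). It was also lost on omitting any 1 array (up to 0.124) other than knockout-labelled replicate 2 and wildtype replicate 1.

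Btg2, an antiproliferative gene induced by p53 and by growth factors and known to mark neural progenitors about to make neurons, had 2 probe sets. The brighter one read 8.52, 8.68, 8.22 and 8.54 in the knockout-labelled and 8.17, 8.24, 8.09 and 8.005 in the wildtype arrays. Only knockout-labelled replicate 3 lay within reach of wildtype, 0.02 under wildtype replicate 2. The means were 8.49 ± 0.20 and 8.13 ± 0.10, or 1.29-fold (0.36 on the log2 scale, SE 0.10, adjusted p = 0.0329). The other probe set gave 7.97, 8.58, 8.28 and 8.43 against 7.75, 7.87, 7.85 and 7.94, without overlap, and a log2 fold change of 0.46 (adjusted p = 0.0328 in the fit over all probe sets). The brighter one failed the threshold on omitting any 1 array (adjusted p up to 0.0932) other than knockout-labelled replicate 3 and wildtype replicate 2. Counted by probe set, 6 of 13 were called higher (both of Jun, both of Btg2, Egr1 and Ier3), where 5.27% of all probe sets were.

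Within the knockout-labelled group the arrays differed in level across several members at once. Replicate 3 was the highest of its group for 6 of 10 genes (Fos, Jun, Junb, Jund, Egr1 and Ier3), and replicate 2 was the lowest for 6 (Fos, Jun, Egr1, Ier2, Ier3 and Atf3). Btg2 ran the other way at its brighter probe set, being highest in replicate 2 and lowest in replicate 3. Its other probe set was also highest in replicate 2 (8.58), but lowest in replicate 1 (7.97), with replicate 3 at 8.28. Replicates 2 and 3 were at the ends of the neuron markers, with a mean of 9.10 and 7.65. Replicates 1 and 4 had 8.13 and 8.11. The wildtype arrays ranged from 7.35 to 8.87 in these markers, so the groups overlapped, and 0 of 12 neuron markers were called (limma; 1, Gap43, had an unadjusted p under 0.05), where 19.6% of all genes were called in either direction. The stromal mean was 11.37 in knockout-labelled replicate 2 and 11.71 in replicate 3, and the macrophage mean 8.37 and 8.86. Knockout-labelled replicate 3, lowest of its group in neuron markers, had the highest mean log2 level over the members (7.97). In the wildtype group, replicate 4 was lowest both in neuron markers (7.35) and in the mean over the members (7.40). Wildtype replicate 2 was the highest of its group for 5 members, and replicates 3 and 4 were each the lowest for 4. With the mean of the neuron markers as a covariate, 4 of the members were called: Jun at a log2 fold change of 0.74, Egr1 at 0.61, Ier3 at 0.43 and Btg2 at 0.32, while Ier2 had an adjusted p of 0.0601.

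**Figure D4:**
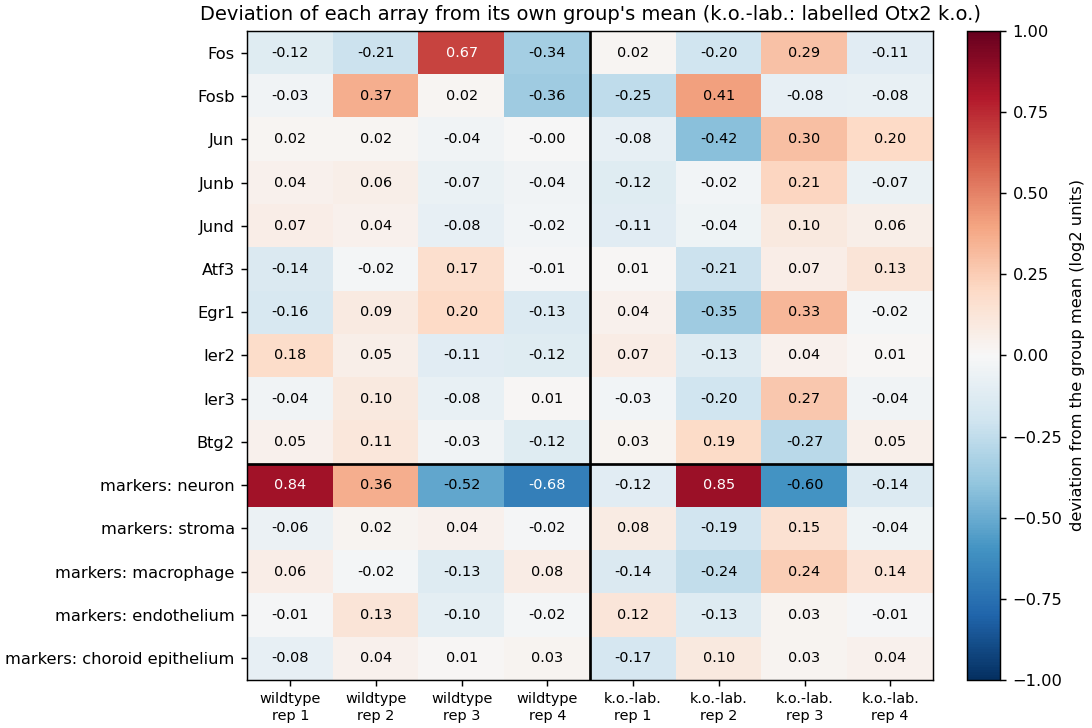
Deviation of each array from the mean of its own group, in log2 units, for the 10 genes (above the line) and for the mean of 5 marker lists (below it). In the knockout-labelled group, replicate 3 is at 0.33 for Egr1 and 0.30 for Jun, and replicate 2 is at -0.35 and -0.42. Btg2, shown by its brighter probe set, has the opposite signs.

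A measure of RNA integrity and labelling, the 3′ minus 5′ difference of the beta-actin control probe sets, was 0.30, 0.22, 0.39 and 0.35 in the knockout-labelled and 0.21, 0.29, 0.29 and 0.25 in the wildtype arrays. The mean difference between groups was 0.05 (exact permutation test, two-sided, p = 0.229). For Gapdh the group difference was 0.05 (exact permutation p = 0.257). The highest value of both was in knockout-labelled replicate 3, at 0.39 and 0.18, and the lowest actin value of that group in replicate 2. With the actin difference as a covariate 4 of the members were called, all but Ier2 (adjusted p = 0.108), and Egr1 then differed by 0.36, Jun by 0.51, Ier3 by 0.30 and Btg2 by 0.46. Of the members not called, Fos then differed by 0.26 and Atf3 by 0.04.

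Of 18 other immediate early transcription factors measured, 6 were called higher, 2 were called lower and 10 did not pass, with a median log2 fold change of 0.09. These are 33.3% higher and 11.1% lower, where 7.84% and 11.7% of all genes were called, so the share called lower was near that of all genes. Ier5l rose by 0.29 (adjusted p = 0.0225), the growth regulator Myc by 0.44 (0.0285) and the zinc finger factor Klf6 by 0.30 (0.0303). Nfil3, a zipper repressor tied to the circadian clock, changed by -0.73 (limma, adjusted p = 0.000428), and the orphan nuclear receptor Nr4a3 by -0.62 (0.00581). Both falls were called in every fit without 1 array, but Nr4a3 differed by only -0.29 when the probe sets of a gene were averaged (adjusted p = 0.0106). Under that setting Ier5l was not called (0.18, adjusted p = 0.134). Most of the rises did not pass when 1 of several arrays was omitted: the count called higher was 0 when knockout-labelled replicate 3 was omitted. It was 1 on omitting knockout-labelled replicate 1 or 4, or any of wildtype replicates 2, 3 and 4. With the replicate block the adjusted p of Myc was 0.0636. With the actin covariate Myc differed by 0.28 (limma, adjusted p = 0.0442), and Ier5l (0.0670) and Klf6 (0.0626) were not called. The paralogues of Egr1 did not pass: Egr2 differed by 0.07, Egr3 by -0.03 and Egr4 by -0.34.

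Of 31 effector genes of the same response measured, 6 were called higher and 3 lower, and 22 did not pass, with a median of 0.02. The shares were 19.4% higher and 9.68% lower, against 7.84% and 11.7% of all genes, so the share called lower did not exceed that of all genes. Phlda1, a regulator of cell survival, rose by 0.79 (adjusted p = 0.000685), the small GTPase gene Rhob by 0.51 (0.00107) and the growth arrest gene Gadd45a by 0.61 (0.00113). Sgk1, a kinase that controls ion transport, changed by -0.88 (limma, adjusted p = 0.000178), the postsynaptic scaffold Homer1 by -0.46 (0.00108) and the stress phosphatase subunit Ppp1r15a by -0.27 (0.0281). Ppp1r15a failed the threshold on omitting any 1 array other than knockout-labelled replicates 2 and 3 (adjusted p up to 0.0806). The feedback phosphatase Dusp1 (-0.13) and the mRNA decay factor Zfp36 (-0.08), known to be induced together with Fos, did not pass. Of the 31 log2 fold changes, 19 were above 0.

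**Figure D5:**
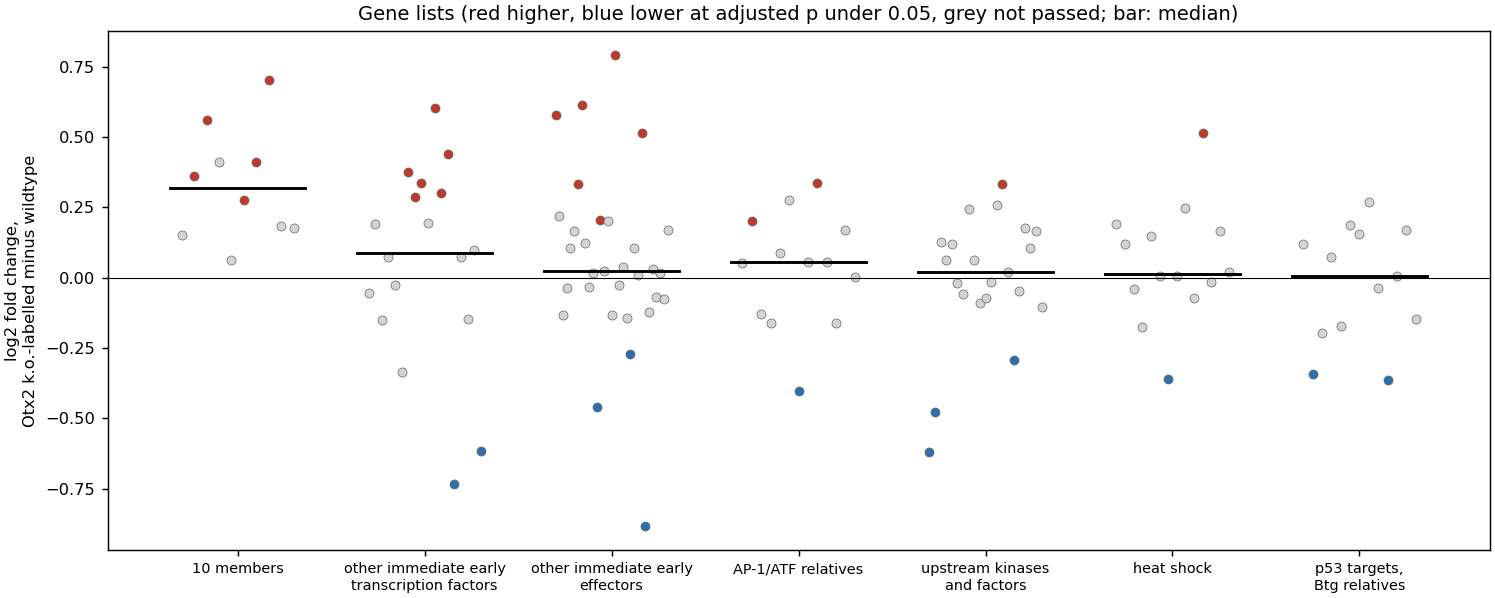
Log2 fold change of each measured gene in the 10 members and 6 further lists, red where called higher, blue where called lower and grey where not passed; bars mark the medians. The members have a median of 0.32 and no blue point, and the medians of the other lists lie between 0.01 and 0.09.

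Of 13 measured AP-1 and ATF relatives, Fosl2 (0.34, adjusted p = 0.0496) and Atf4, a factor of the integrated stress response (0.20, 0.0376), were called higher. Batf3, a zipper protein that pairs with Jun, was called lower (-0.40, 0.00894), and 10 did not pass. The list's median was 0.05, and the 23.1% called in either direction is near the 19.6% of all genes. With the replicate block Batf3 alone was called (limma, adjusted p = 0.0150), Fosl2 being at 0.0613 and Atf4 at 0.0590. Fosl2 passed in only 1 of the 8 fits that omit an array, the one lacking knockout-labelled replicate 2, and Atf4 only in the one lacking wildtype replicate 1 (adjusted p up to 0.127 and 0.109). Fosl2 differed by 0.21 with the actin covariate (adjusted p = 0.130), and Atf4 by 0.13 with probe sets averaged (0.101).

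Upstream kinases and factors gave 1 higher, 3 lower and 17 not passed of 21 measured, with a median of 0.02. That is 19.0% called, near the 19.6% of all genes. The stress kinase Mapk14 rose by 0.33 (adjusted p = 0.00266), while the MAP kinase cascade member Braf changed by -0.62 (0.000269), the calcium-dependent kinase Camk4 by -0.48 (0.00712) and the Jun kinase Mapk9 by -0.29 (0.0479). Mapk9 was not called with the replicate block (0.0545), nor on omitting any 1 array other than knockout-labelled replicates 3 and 4 (up to 0.125). Taking the mean of a gene's probe sets, Mapk14 differed by 0.09 (adjusted p = 0.360) and Camk4 by -0.22 (0.0930), and neither was called. Braf was still called under that setting, at -0.24 (limma, adjusted p = 0.00883). The factors that bind CRE and CArG boxes did not pass, Creb1 differing by 0.13 and Srf by -0.10.

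Of 14 heat shock and protein stress genes, Hspb1, a small chaperone, rose by 0.52 (adjusted p = 0.0164) and Hsp90aa1 changed by -0.36 (0.00492), with a median of 0.01. These 14.3% called lie under the 19.6% of all genes. Hspb1 had an adjusted p of 0.0513 with the actin covariate, and of 0.0515 and 0.0511 on omitting wildtype replicates 2 and 3. The heat-inducible chaperone gene Hspa1a differed by 0.01 (limma, adjusted p = 0.979) and Hspa1b by 0.25 (0.119), and neither was called. Of 13 p53 targets and relatives of Btg2, Tob1, an antiproliferative relative of Btg2, changed by -0.36 (0.00534) and the cyclin gene Ccng1 by -0.34 (0.0114). The other 11 did not pass, among them the p53 targets Cdkn1a (-0.20), Mdm2 (-0.17) and Sesn1 (0.27, limma, adjusted p = 0.0595). Of the 13 log2 fold changes 7 were above 0, and the median was 0.01. The 15.4% called lower is near the 11.7% of all genes. Without knockout-labelled replicate 2, 4 of these genes were called, 1 higher and 3 lower.

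Genes whose levels over the 8 arrays were most like the mean standardised level of the 10 members were sought among 8910 genes above the median level, as a description. All 8 arrays share the genotype difference, so the likeness includes it. Npr2, a natriuretic peptide receptor, was closest (r = 0.990), followed by the membrane skeleton gene Epb41l3 (0.988), the mesenchymal forkhead factor Foxc1 (0.978), Rflna (0.977), the transcriptional co-activator Wwtr1 (0.977) and Snx30 (0.976). Foxc1 read 9.54, 9.45, 9.97 and 9.81 in knockout-labelled replicates 1 to 4, each above every wildtype array, with replicate 3 highest and replicate 2 lowest, as in Jun. After each group's mean was taken off, the closest over the 8 arrays were Epb41l3 (0.991), Aph1a (0.965), Nr2c1 (0.963), Wnk1 (0.962), Gab2 (0.953) and Npr2 (0.953). Of these, Aph1a, Nr2c1, Wnk1 and Gab2 were not called between the groups, with log2 fold changes of 0.01, 0.03, 0.06 and -0.17.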

How the data were processed

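The authors deposited log2 values, 1 per probe set and array, and the submitters' processing notes name RMA. This method corrects background, equalises the arrays' distributions and summarises probes, so it hides changes in total RNA and compresses differences of dim and bright probe sets. No source used here names its software or version, detection calls were not used, and the number of arrays limits the precision. Of 45101 probe sets, 64 were controls and 34945 had 1 gene in the platform annotation. All 13 member probe sets kept their symbol in the RefSeq table (GRCm38.p6).

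Groups were compared with limma 3.58.1 in R 4.3.3 (two-sided, genotype only), over 18193 genes with the brightest probe set for each, and over 45037 probe sets. The procedure was tested on simulated data. The members, 6 further lists (110 of 124 entries measured; the others are not analysed here) and 6 marker lists (54 of 56) were chosen with earlier results of these data known. Named were all members and, from each further list, every called gene where 4 or fewer were called and otherwise the 3 with the smallest p in each direction. Clone names and sex-linked transcripts were left out of the search for similar genes. List genes named without a call were chosen after their values were seen.

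After group means were taken off, arrays with the same number correlated at 0.131, 0.232, 0.160 and 0.223 for numbers 1 to 4, over the limit of 0.1, so by the rule used the numbers were treated as pairing the arrays, in a fit with the replicate block beside the main one. Arrays with different numbers correlated at -0.296 to 0.294, and 5 of 8 arrays correlated best with their own number, so the evidence for pairing is weak. No label says what a number marks. Alternatives were that block, leaving out each array, other variance priors, weights, normalizations and probe set choices, a filter on dim genes and an actin covariate, with a neuron covariate added after seeing the data.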

Additional observations from a re-analysis of the deposited data

How the results depend on the processing

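All 10 members kept a positive log2 fold change in every alternative that gave a value, except Fosb. Fosb was -0.0698 with array weights, and lay between -0.0746 and 0.185 when 1 array was omitted, below 0 on omitting knockout-labelled replicate 2 or wildtype replicate 4. The members' median ranged from 0.26 to 0.39. Jun was called in all 18 alternatives. The number of members called was 2 to 4 in the fits without 1 array and 4 to 6 otherwise, and of member probe sets 2 to 6 and 4 to 7. In the fits without 1 array the number of called AP-1 and ATF relatives was 1 to 2, of other immediate early transcription factors 2 to 9, of effectors 7 to 10, of upstream genes 3 to 4, of heat shock genes 1 to 3 and of p53 targets and Btg relatives 2 to 4. Called relatives numbered 1 (Batf3, 0 higher) with the replicate block and with arrays centred on their medians, and 1 above the median level. With the actin covariate, 3 other immediate early transcription factors (1 higher, 2 lower) and 1 heat shock gene were called. With array weights and above the median level, 4 p53 targets and Btg relatives were called (1 higher, 3 lower), and with the mean of probe sets 2 upstream genes. The replicate block changed the calls of Fos, Ier2, Fosl2, Atf4, Klf10, Myc and Mapk9 among the members and called list genes. Fits without 1 array hold fewer samples, and the causes of the other changes were not tested. A dim level such as that of Fosb cannot be set against background here, since no detection calls were used.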
